A study of Mus musculus with 7 samples.

Results

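B cells are described here in the seminal vesicle, the accessory gland that makes most of the seminal fluid, of aging C57BL/6J males. They were picked out by their own transcripts. Among cells with at least 500 detected genes and at most 10% mitochondrial UMIs (unique molecular identifiers, each standing for 1 captured RNA molecule), a cell was taken as a B cell when it held at least 3 UMIs of Cd79a, Cd79b and Ms4a1 together, at most 2 UMIs of C1qa, C1qb and C1qc together, and 0 UMIs of Cd3e. The C1q genes mark tissue macrophages and Cd3e marks T cells. The rule found 320 B cells among the 5014 cells of this aging pool that passed the filter, out of 6325 cells deposited for it. The series as a whole holds 40342 passing cells of 53352 deposited from 23 mice. The same rule found 6 cells among the 35328 passing cells of the other 13 mice, which were FVB/NJ. Strain and run differed from the aging pool for all 13 and cannot be told apart. Diet, age and rapamycin treatment differed for some of the mice. The untreated 3-month mice of the pool held 9 B cells among 1065 passing cells. The cause of the difference was not tested.

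The aging pool held dissociated seminal vesicle cells of 10 wild type C57BL/6J males, tagged mouse by mouse and run as 1 pool on 1 flow cell of a 10x Genomics 3' assay. Mice Y1 and Y2 were 3 months old. Mice 20C1 and 20C2 were 20 months old and 28C1 and 28C2 were 28 months old, all 4 raised under control conditions. Mice 20R1 and 20R2 (20 months) and 28R1 and 28R2 (28 months) had been given rapamycin transiently, with no dose or schedule given in the sources used here. The glands were opened and rinsed, digested with collagenases, and passed over a density gradient, so shares of cells describe what survived that preparation. No perfusion was described, and blood cells left in the vessels cannot be told apart from cells of the tissue. The 10 mice gave 244 to 809 passing cells each, with 1711337 to 14753284 UMIs in those cells.

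A B cell recognises antigen through its receptor, a membrane antibody of paired heavy and light chains that signals through the partner proteins CD79A and CD79B. Resting B cells carry IgM and IgD, and an activated B cell can switch its heavy chain constant region to IgG, IgA or IgE and can become a plasma cell, which secretes large amounts of 1 antibody. B cells also present antigen on MHC class II to helper T cells and depend on the cytokine BAFF and its receptor for survival.

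The label was checked against genes that the rule did not use. Of the 320 cells, 266 held a UMI of Ebf1, the factor that starts the B cell program, 138 of Fcmr, the Fc receptor for IgM, and 33 of Pax5, which holds cells to the B lineage. At least 1 of these 3 genes was detected in 293 of the 320 cells, and 311 cells were positive once Ighm and Ighd were counted too. In the 491 T cells of the same mice (at least 3 UMIs of Cd3d, Cd3e and Cd3g, at most 2 of the B cell genes and at most 2 of C1q) the counts were 16 and 72. Median depth was 2588.5 UMIs and 954.5 genes per B cell and 2780 UMIs and 1154 genes per T cell, so the B cells were not the deeper population. The data go with the name B cell. Of the precursor genes, Rag1, Rag2, Dntt, Vpreb1 and Igll1 had 0 UMIs in all 320 cells, which allows up to 0.938% of cells with a UMI of each and sets no limit on cells that express them below detection. Vpreb3 was detected in 21 cells.

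Markers of other cell types were counted in the B cells. The rule itself barred Cd3e and capped C1q, so those genes say nothing here. At least 3 UMIs of the 6 other T cell markers were found in 4 of the 320 cells, of the 4 other macrophage markers in 1, of 5 NK cell markers in 1, of 3 endothelial markers in 2 and of 5 fibroblast markers, mostly Dcn, in 6. Dendritic cell, neutrophil, basal epithelial and smooth muscle markers reached 3 UMIs in none of them. Seminal vesicle secretory transcripts were another matter, with Svs5 detected in all 320 B cells and all 491 T cells. The prostate-like markers Tgm4 and Pbsn reached 3 UMIs in 12 B cells. The ceiling on C1q left out 13 cells that held enough B cell UMIs, and the ban on Cd3e left out 3. No doublet caller was run, and the matrices used hold cells that had been assigned to 1 mouse by their tag.

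Cells on either side of the threshold were compared among cells that met the limits on C1q and Cd3e. The 43 cells with 2 UMIs of the 3 rule genes held an Ighm UMI in 60.5% of cases and an Fcmr UMI in 32.6%, against 76.4% and 36.4% of the 55 cells with 3 UMIs and 77.6% and 36.7% of the 49 cells with 4. In the 216 cells with 5 or more, Ighm was found in 84.3% and Fcmr in 46.3%. Among the 3276 such cells with 0 UMIs of the rule genes, which leaves out most T cells and macrophages, the shares were 7.14% and 0.153%. Of the 43 cells with 2 UMIs, 30 came from mouse 28C2. In the other 9 mice Ighm was found in 38.5% and Fcmr in 23.1% of 13 cells with 2 UMIs, 54.5% and 36.4% of 11 cells with 3, and 77.8% and 55.6% of 9 cells with 4. In their 81 cells with 5 or more UMIs the shares were 85.2% and 44.4%.

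B cells were unevenly spread over the mice, and 1 mouse held most of them. In the 3-month mice they made up 1.41% of passing cells in Y1 (5 of 355, exact 95% binomial interval 0.459 to 3.26) and 0.563% in Y2 (4 of 710, 0.154 to 1.44). At 20 months the control mice had 5.88% in 20C1 (19 of 323, 3.58 to 9.03) and 1.14% in 20C2 (8 of 699, 0.495 to 2.24), and the rapamycin mice 2.46% in 20R1 (6 of 244, 0.908 to 5.28) and 3.47% in 20R2 (14 of 403, 1.91 to 5.76). At 28 months the control mice had 6.64% in 28C1 (33 of 497, 4.61 to 9.20) and 27.1% in 28C2 (219 of 809, 24.0 to 30.3), and the rapamycin mice 1.71% in 28R1 (8 of 469, 0.739 to 3.33) and 0.792% in 28R2 (4 of 505, 0.216 to 2.02). These intervals cover counting error only. Mouse 28C2 stood far above all others and contributed 68.4% of all B cells, leaving 101 in the other 9 mice, whose shares ran from 0.563% to 6.64% with a median of 1.71%.

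Shares at the 3 ages overlapped. Means were 0.986% ± 0.598 at 3 months (SD, n = 2), 3.24% ± 2.00 at 20 months (n = 4) and 9.05% ± 12.3 at 28 months (n = 4), and the 28-month group held both the highest share and 1 of the 3 lowest shares. The rank correlation of share with age was 0.44 over the 10 mice, which an exact two-sided permutation test did not separate from no relation (p = 0.204, adjusted p = 0.389 over the 7 tests made across mice). Without mouse 28R2 the rank correlation was 0.69 (exact permutation p = 0.046, unadjusted). Among the 20- and 28-month mice, the 4 controls averaged 10.2% ± 11.5 and the 4 rapamycin mice 2.11% ± 1.14. Control shares ran from 1.14% to 27.1% and rapamycin shares from 0.792% to 3.47%, so the groups overlapped. The mean rank was lower by 2.5 with rapamycin (exact two-sided permutation p = 0.222, adjusted p = 0.389; the smallest p this design allows is 0.0556).

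The excess in 28C2 held against other denominators. Among cells with a UMI of Ptprc, the gene for the leukocyte antigen CD45, B cells were 25.0% in 28C2 and 0.752% to 10.9% in the other 9 mice. Per T cell there were 2.03 B cells in 28C2 and 0.826 in 20C1, the next highest, with 0.0656 in 28R2 at the low end. Among cells that were not B cells by the rule, 9.49% had a Cd79a UMI in 28C2 and at most 2.30% in any other mouse. Free Cd79a RNA and B cells below the threshold may both enter that share, and the part of each was not tested. The rule itself used Cd79a, so this share is no separate support for the excess. Cells of 28C2 within the limits on C1q and Cd3e were also compared by UMIs of the rule genes. With 1 and 2 UMIs, 67.9% and 70% held Ighm and 17.9% and 36.7% held Fcmr. With 0 UMIs the shares were 10.3% and 0.685%. In T cells of the pool Cd79a was found in 1 of 491.

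T cells were counted beside the B cells as another type of lymphocyte. As a share of cells that were not B cells, they made up 8.00% and 7.79% in Y1 and Y2, 7.57% and 5.50% in 20C1 and 20C2, 14.7% and 7.46% in 20R1 and 20R2, 14.9% and 18.3% in 28C1 and 28C2, and 9.76% and 12.2% in 28R1 and 28R2. Over the 10 mice the B cell share and T cell share had a Pearson r of 0.69 (permutation p = 0.0197, adjusted p = 0.138) and a Spearman rho of 0.43 (permutation p = 0.219, adjusted p = 0.389). Mice 28C1 and 28C2 were the 2 farthest from the median B cell share. Without both, r was −0.11 and rho −0.12 (permutation p = 0.80 and p = 0.795, n = 8). Without 28C2 alone r was 0.31 (permutation p = 0.422), and without 28C1 alone it was 0.71 (permutation p = 0.0615). In either case rho was 0.22, so r leaned most on 28C2. All 10 mice were in 1 run, and no split by batch was possible.

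**Figure D1:**
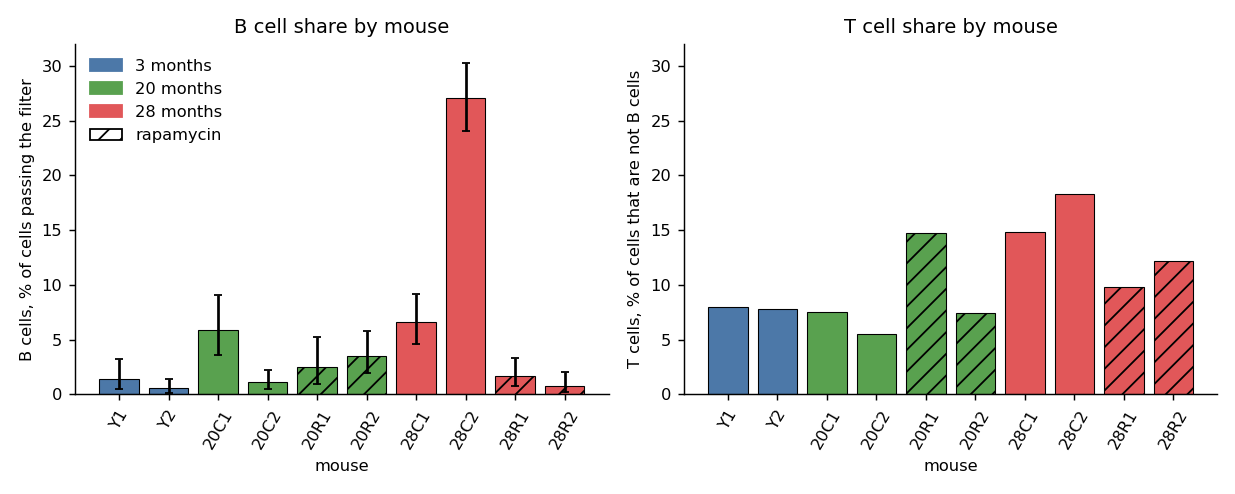
Share of B cells among cells passing the filter (left, %, bars with exact 95% binomial intervals) and of T cells among the cells that are not B cells (right, %) in each of the 10 mice, coloured by age, with rapamycin mice hatched. Mouse 28C2 stands at 27.1% B cells while the other 9 mice lie between 0.563% and 6.64%.

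Levels are given below as CPM, that is UMIs of a gene per 1000000 UMIs of all genes other than immunoglobulin genes, summed over the B cells of a mouse. Immunoglobulin genes were left out of the total because a few cells, described below as Jchain-rich, hold most of their UMIs over all 320 cells. Means ± SD are over the 4 mice with at least 10 B cells, 20C1 (19 cells), 20R2 (14), 28C1 (33) and 28C2 (219), and are compared with T cells and with C1q macrophages (at least 3 C1q UMIs, 827 cells over the 10 mice) of the same 4 mice. Counts of cells are over all 320, of which 28C2 gave most. A comparison of B cells with other cells carries no test, since B cells were chosen by their transcripts. As a background, of the 12849 genes outside the rule that had a UMI in the B cells of these 4 mice, 9.66% were higher in B cells than in T cells in 4 of 4 mice, 15.3% higher than in macrophages and 21% higher than in the remaining cells, and nothing is read from counts against them.

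The receptor partner Cd79a (GRCm38 chr7:24897381-24902197) was the most abundant gene of the rule, at 1656 CPM in 20C1, 1627 in 20R2, 1977 in 28C1 and 1598 in 28C2, and Ms4a1, which encodes CD20 (chr19:11249675-11266241), stood at 301 ± 30.3. These levels are what the rule selected. Of the coreceptors it did not use, Cd81, a tetraspanin, was shared with macrophages at 361 ± 110 CPM against 425 ± 87.9. Cr2, the complement receptor of B cells, was found in 3 of 320 B cells. The inhibitory receptors Fcgr2b (117 ± 15.0 CPM, 94 cells) and Cd72 (121 ± 103 CPM, 61 cells) exceeded their T cell levels in 4 of 4 mice, and macrophages had 283 ± 67.0 and 130 ± 27.1 CPM of them. Cd22, an inhibitory lectin of B cells, was found in 36 cells and Siglecg, its relative, in 25.

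Kinases and adaptors downstream of the receptor were present as well. Lyn, the kinase that starts and also restrains the signal, was at 165 ± 23.5 CPM, Syk at 93.1 ± 34.3 and Blk at 96.8 ± 20.4. Blk was detected in 94 of 320 B cells, 64 of 491 T cells and 1 of 827 macrophages. The scaffold Bank1 (104 ± 29.5 CPM) was found in 96 B cells against 2 T cells, whereas Blnk, the linker to calcium signalling (115 ± 31.1 CPM), overlapped with macrophages at 92.3 ± 21.7. Of the 9 signalling genes listed, 7 were higher in B cells than in T cells in all 4 mice, as were 9.66% of the 12849 background genes.

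Among transcription factors, Ebf1 (chr11:44617317-45008091) stood at 566 CPM in 20C1, 559 in 20R2, 369 in 28C1 and 835 in 28C2, far from the T cell mean of 9.48 ± 7.19. Ebf1 is also used by stromal cells, and 12.9% of the 3276 cells with 0 UMIs of the rule genes held it. Mef2c, a factor downstream of the receptor, was at 655 ± 193 CPM in B cells, 195 ± 90.1 in macrophages and 14.7 ± 21.7 in T cells. Pou2af1, the coactivator of immunoglobulin promoters, was at 128 ± 68.4 CPM in B cells and was detected in 1 T cell and 0 macrophages. Pax5 was low at 36.7 ± 16.8 CPM, and Spib ranged from 0 in 20C1 to 108 in 28C1. Of the 10 factors, 5 exceeded the T cell level in 4 of 4 mice, as did 9.66% of the background genes. Ikzf3, a factor of both lineages, was at 90.0 ± 23 CPM in B cells and 61.3 ± 42.1 in T cells.

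Some surface genes differed widely between mice. Ly6d (chr15:74762056-74763620), an early marker of B lineage commitment, was at 400 CPM in 20C1, 641 in 20R2, 547 in 28C1 and 1527 in 28C2, and the other 3 mice lay well below 28C2. Il5ra, the interleukin-5 receptor chain (chr6:106710357-106749037), which was named after its values were seen, was at 41.4, 65.7, 44.5 and 164 CPM in the same order and was found in 92 B cells and 1 T cell. Fcmr varied less, at 262 ± 63.6 CPM. Mzb1, a chaperone of antibody assembly present in B-1, marginal zone and plasma cells, was detected in 230 B cells and 2 T cells, at 2126 CPM in 20C1, 1808 in 20R2, 1506 in 28C1 and 687 in 28C2. Jchain-rich cells, described below, carried much of the Mzb1. Without them it was at 1640, 405, 828 and 575 CPM in the same order of mice, and 20R2 was lowest.

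**Figure D2:**
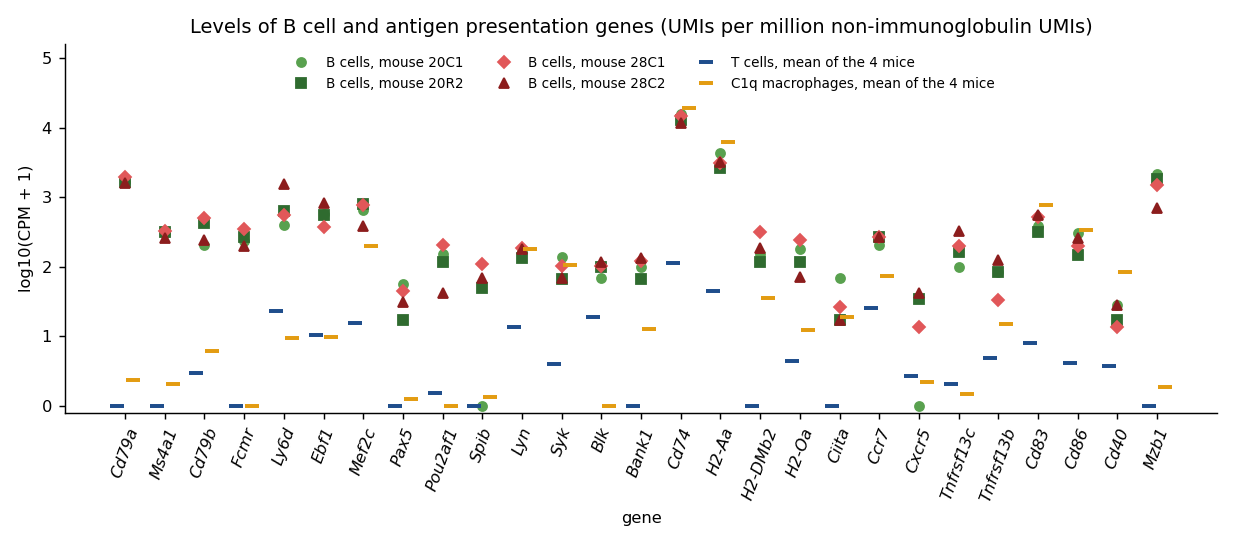
Levels of B cell and antigen presentation genes as log10(CPM + 1) in the B cells of the 4 mice with at least 10 B cells (symbols) and in their T cells and C1q macrophages (dashes, means of the same 4 mice). B cell genes such as Fcmr and Pax5 lie near 0 in both other types, while Cd74 and H2-Aa are shared with macrophages.

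Ranked by level in B cells over level in all other cells of the pool, 14 of the 15 leading genes were immunoglobulin genes, and Jchain, which links IgA and IgM units into polymers, was the other one. Several of these ranks came from 1 cell: Igha was at 16936 CPM in 20C1 and at 0, 31.8 and 7.28 in the other 3 mice, and Ighg2b at 21809 in 20R2 and at most 23.3 elsewhere. Outside the immunoglobulin genes, a ranking made after the values were seen was led by Jchain, Mzb1, Vpreb3, Fcmr and Pou2af1. Jchain was at 32865 CPM in 20C1 and 966 to 3550 in the other 3 mice, and Vpreb3 at 394 in 28C1 and 11.6 to 49.3 in the others, so their ranks leaned on 1 mouse each. Without the Jchain-rich cells Vpreb3 was at 44.5 CPM in 28C1 and 10.3 to 34.2 in the others. Fcmr ran from 201 to 350 CPM, 121 times the mean level in other cells. The calcium channel genes Cacna1e and Cacna1s stood further down, with 34 positive cells each.

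Heavy chain calls were mostly unswitched. With a call made where a cell held at least 3 heavy chain constant UMIs and at least 80% of them were of 1 class, 159 cells were called IgM or IgD, 4 IgG, 2 IgA and 0 IgE. The other 155 of the 320 cells had no call. The IgG calls lay in 20R2 (1 cell) and 28C1 (3), and the IgA calls in 20C1 (1) and 20C2 (1). All 4 IgG cells and the IgA cell of 20C1 were rich in Jchain, as described below. T cells, which do not make antibody, gave 4 IgM or IgD calls among 491. Ighm (chr12:113418558-113422730) was detected in 262 B cells and Ighd (chr12:113406604-113416324) in 48, or 15.0%, against 0.611% of T cells.

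Shares of switched transcripts were set by single cells. IgG, IgA and IgE genes made up 47.8% of heavy chain constant UMIs in 20C1, 85.1% in 20R2, 25.5% in 28C1 and 2.49% in 28C2. Both 20-month mice lay above both 28-month mice (rank correlation −0.89, exact permutation p = 0.333, the smallest that 4 mice allow, adjusted p = 0.467). Without the cells rich in Jchain that are described below, the shares were 0, 9.26, 1.68 and 4.79%, and that order was gone. Ighd made up 0.670, 2.54, 0.713 and 2.38% of Ighm plus Ighd UMIs, with no rank relation to age (rho 0, exact permutation p = 1). Without the Jchain-rich cells the Ighd shares were 1.54, 12.2, 2.36 and 4.68%.

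Among cells with a single light chain call, kappa led. By the same rule of 3 UMIs and 80%, 20C1 had 14 kappa, 2 lambda and 3 mixed cells, 20R2 had 9 kappa, 0 lambda and 5 mixed, 28C1 had 24, 0 and 9, and 28C2 had 93, 6 and 111 with 9 cells below 3 UMIs. Over the 10 mice 163 cells were called kappa, 10 lambda and 138 mixed. Mixed cells held few UMIs of either chain, with medians of 8 kappa and 5 lambda UMIs. Igkc, the kappa constant gene (chr6:70726435-70726966), had a median of 20, 16.5, 16 and 8 UMIs per B cell in these mice. Of the 491 T cells, 484 held fewer than 3 light chain UMIs. Lambda made up 12.5, 0, 0 and 6.06% of kappa and lambda calls (rank correlation with age −0.24, exact permutation p = 1), and 4 mice cannot show a difference here.

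**Figure D3:**
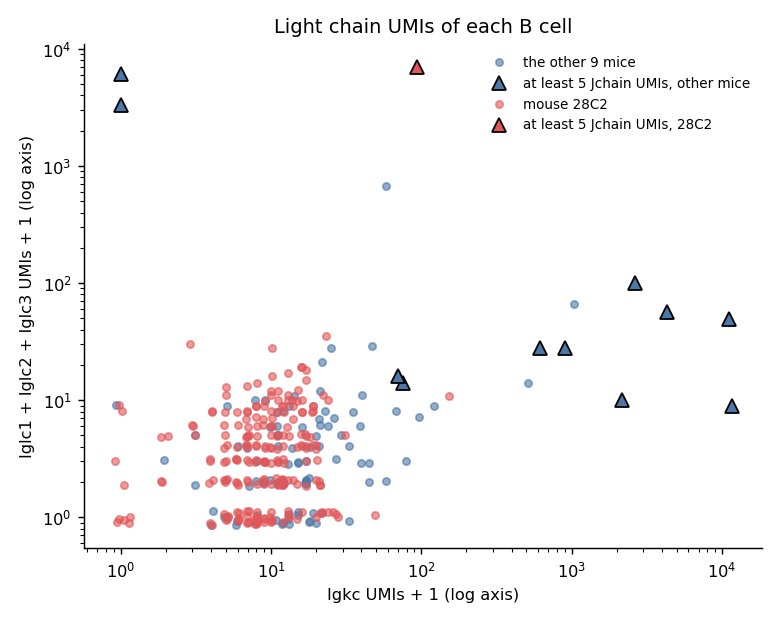
Lambda constant UMIs (Iglc1, Iglc2 and Iglc3, with 1 added) against Igkc UMIs (with 1 added) in each of the 320 B cells, both axes logarithmic, with 28C2 in red, the other 9 mice in blue and cells with at least 5 Jchain UMIs as triangles. Of the 320 cells 301 lie under 50 Igkc UMIs, and most triangles lie far out along 1 of the axes.

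The lambda genes need a caution about reads. The 3 constant genes lie on chromosome 16 on the minus strand, and the opening 120 coding bases of each are shown to compare their coding sequence. They are printed 5′ to 3′ from GRCm38 with the GENCODE vM21 annotation, with bases that differ from Iglc2 in capitals.
Iglc2, chr16:19198731-19198850: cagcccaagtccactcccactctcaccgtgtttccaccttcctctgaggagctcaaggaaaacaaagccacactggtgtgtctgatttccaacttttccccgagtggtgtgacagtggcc
Iglc3, chr16:19065560-19065679: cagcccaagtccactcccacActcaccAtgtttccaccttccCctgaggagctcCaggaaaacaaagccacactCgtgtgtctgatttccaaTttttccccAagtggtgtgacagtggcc
Iglc1, chr16:19061950-19062069: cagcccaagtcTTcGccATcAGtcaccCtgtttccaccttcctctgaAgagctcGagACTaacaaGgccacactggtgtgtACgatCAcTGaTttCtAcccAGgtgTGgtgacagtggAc
Iglc3 differed from Iglc2 at 7 of these bases and Iglc1 at 28. Over the aligned coding sequence Iglc2 and Iglc3 were identical at 301 of 312 bases (96.5%), and Iglc1 matched them at 74.9% and 75.9%. UMIs given to Iglc2 or Iglc3 may be uncertain between those genes, whereas the coding sequence of Iglc1 stands apart. Expression was read from the 3′ end, the 3′ ends of the transcripts were not compared, and the assignment of reads was not tested.

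Some B cells held far more antibody RNA than the rest. Jchain (chr5:88519809-88527891) reached at least 5 UMIs in 12 of the 320 cells, with 3 in 20C1, 2 in 20R2, 4 in 28C1 and 1 each in 28C2, 28R1 and 28R2. They are called Jchain-rich here. Their immunoglobulin genes took 0.700% to 66.9% of all UMIs (median 45.5%), and these 12 cells held 86.0% of the Igkc UMIs, 73.3% of the Ighm UMIs and 89.7% of the lambda UMIs of all 320 B cells. This differed by mouse: in 28C2, 2189 of 2282 Igkc UMIs lay outside its Jchain-rich cell, and Y1, Y2, 20C2 and 20R1 had no such cell. A Y1 cell that was not Jchain-rich held 678 lambda UMIs, and one of 20C1 held 1035 Igkc UMIs.

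In constant gene UMIs, each Jchain-rich cell leaned on 1 heavy and 1 light chain gene. The leading heavy chain constant gene took at least 98.3% of a cell's heavy chain UMIs and the leading light chain gene at least 82.1% of its light chain UMIs. The heavy chain was Ighm in 7 cells, Ighg1 in 3, Ighg2b in 1 and Igha in 1, and the light chain was Igkc in 9, Iglc1 in 2 and Iglc2 in 1. Variable genes did not always match. In the Ighg2b cell of 20R2 and in an Ighg1 cell of 28C1, Igkc led with 909 and 2640 UMIs while the leading light variable gene was the lambda gene Iglv1, with 52 and 65 UMIs. The Igha cell of 20C1 held 1227 Igha UMIs, 11626 Igkc UMIs and 1980 Jchain UMIs among 19511 in all, with 145 UMIs of the kappa variable gene Igkv1-117. The Iglc1 cell of 28C2 held 6973 Iglc1 UMIs, 558 Ighm UMIs and 661 Jchain UMIs. Plasma cell genes were found in most of them, with Mzb1 in 11, Xbp1, the factor that expands the secretory machinery, in 11 and Sdc1, the plasma cell surface gene, in 7. The rule asks for Cd79a, Cd79b and Ms4a1, so plasma cells without them would not be among the 320, and 7 other cells of the pool also held at least 5 Jchain UMIs.

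Jchain-rich cells also differed among themselves. In 28C1, the pair with the fewest immunoglobulin UMIs held 24 and 13 Ighg1 UMIs, 15 and 17 Jchain UMIs, and 3503 and 2893 detected genes. The other Ighg1 cell of that mouse held 482 Ighg1 UMIs, 245 Jchain UMIs and 2978 genes. Mki67, a gene of cycling cells, was found with 1 and 2 UMIs in the pair, 3 in that other cell and 11 in the Ighg2b cell of 20R2. H2-Aa was at 64 and 31 UMIs in the pair, 15 in that other cell and 0 to 4 in the remaining 9 Jchain-rich cells.

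**Figure D4:**
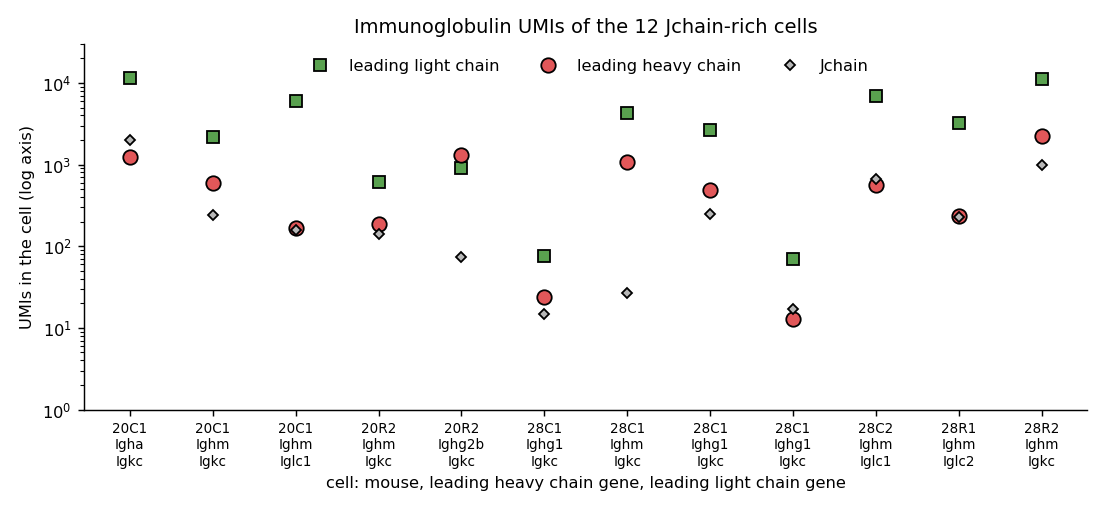
UMIs of the leading light chain (squares), the leading heavy chain (circles) and Jchain (diamonds) in each of the 12 Jchain-rich B cells on a logarithmic axis, with mouse and genes named under each cell. Light chain UMIs exceed heavy chain UMIs in 11 of the 12 cells, the exception being the Ighg2b cell of 20R2.

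Variable genes were few in the sums, as expression was read from the 3′ end. The variable genes with the most UMIs were Ighv4-1 (31 UMIs) and Igkv1-117 (146) in 20C1, Ighv5-4 (4) and Iglv1 (52) in 20R2, Ighv3-2 (7) and Iglv1 (70) in 28C1, and Ighv14-4 (11) and Iglv1 (109) in 28C2. The Jchain-rich cells supplied most of them. In 28C2 without its Jchain-rich cell, 69 variable gene UMIs of 29 genes were spread over 53 of 218 cells, and 20 of the 29 genes were seen in 1 cell alone. Igkv4-74 was found in 11 cells and Ighv12-3 in 7, with 1 cell holding both, and each cell held 1 UMI of the gene. Both genes were at 0 in the B cells of the other 9 mice and in the T cells of all 10, and they were named after their values were seen. With 1 UMI per cell, a shared variable gene does not show a shared clone.

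Genes used to tell B cell subsets apart gave no single subset. Of the follicular genes, Ccr7, which guides cells to T cell zones, was found in 41.9% of B cells against 4.89% of T cells, at 207 CPM in 20C1, 263 in 20R2, 267 in 28C1 and 263 in 28C2. Cxcr5, the receptor for the follicle chemokine CXCL13, was found in 30 B cells and Fcer2a (CD23) in 22. Of the marginal zone genes, Dtx1 was found in 23 cells, Cd1d1 in 7 and Cr2 in 3. None of the marginal zone genes was detected in over 10% of B cells.

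B-1 genes were divided. Cd5, the classical B-1a marker, was at 0 in all 320 B cells and was found in 76 of the 491 T cells. Taken as 3 counts in 320 cells, as for the precursor genes, this allows up to 0.938% of B cells with a UMI. Bhlhe41, a factor needed by B-1a cells, was found in 77 B cells against 6 T cells, at 85.8 ± 36.2 CPM against 2.64 ± 5.28. Cd9 (121 cells) and S100a6 (144 cells) are broader genes, and T cells held S100a6 more often, in 417 of 491. Spn (CD43) was found in 17.

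Of memory genes, Cd80 was found in 29 B cells, Pdcd1lg2 (PD-L2) in 34 and Nt5e (CD73) in 12, while Cd27 was found in 1. Cd80 stood at 31.9 ± 4.69 CPM against 0.977 ± 1.95 in T cells and 19.2 ± 8.93 in macrophages. Of the genes of age-associated B cells, a subset that gathers in old mice, Tbx21 (T-bet) and Itgax (CD11c) were found in 1 B cell each, Itgam in 5 and Fcrl5 in 11. Zeb2 was found in 52 B cells and Zbtb32 in 20. Of germinal centre genes, Fas was found in 36 B cells and Bcl6 in 9.

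**Figure D5:**
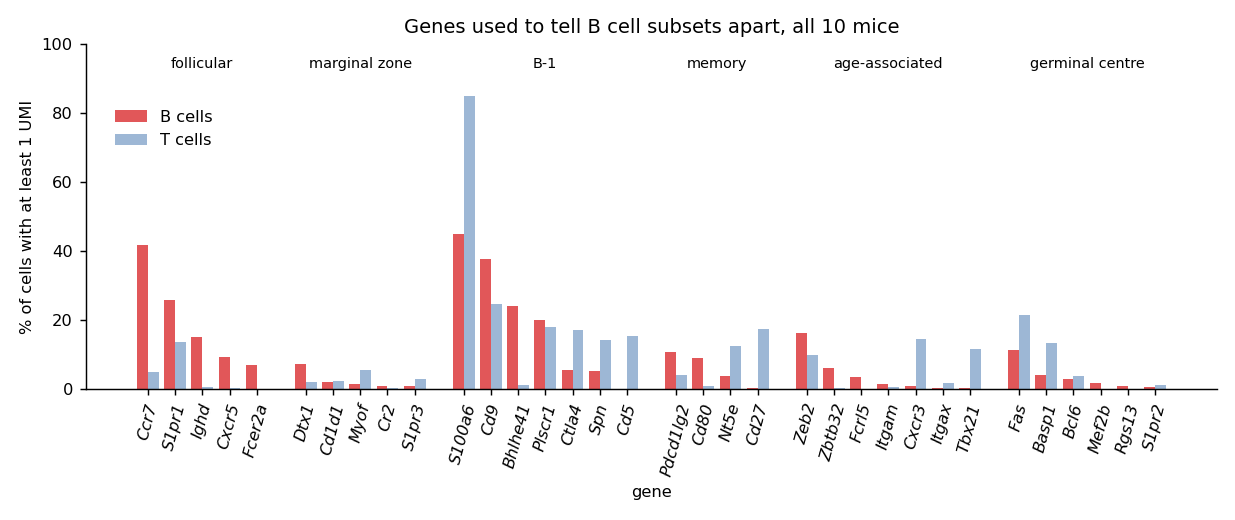
Percent of the 320 B cells and the 491 T cells of the 10 mice with at least 1 UMI of genes from 6 lists used to tell B cell subsets apart. Ccr7 is found in 41.9% of B cells, Cd5 and Cd27 are found in T cells and nearly absent from B cells, and S100a6 is found more often in T cells.

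Antigen presentation genes were abundant in B cells. The 10 MHC class II genes listed summed to 23404 ± 3437 CPM in B cells, 228 in T cells and 36359 in C1q macrophages. All 10 lay above T cells and above the remaining cells in 4 of 4 mice. Of the background genes, 9.66% lay above T cells and 21% above the remaining cells in 4 of 4 mice. The invariant chain Cd74 was at 15556 CPM in 20C1, 12885 in 20R2, 14516 in 28C1 and 11674 in 28C2, and H2-Aa at 4251, 2597, 3044 and 3241. The spread between mice was small beside the distance to T cells. Macrophages held more of the peptide-binding chains on average. H2-Aa was at 6168 ± 1927 CPM, H2-Ab1 at 4657 ± 1461 and H2-Eb1 at 5614 ± 1808 in macrophages. In B cells they were at 3283 ± 699, 2528 ± 529 and 3014 ± 546. The sum of the 10 genes was higher in macrophages in 20C1, 20R2 and 28C2. In 28C1 it was lower in macrophages, at 22875 against 24678 CPM. H2-Oa, H2-Ob and H2-DMb2, which act in peptide loading, were higher in B cells than in macrophages. H2-DMa and H2-DMb1 are not compared here. H2-Oa was at 151 ± 75 CPM in B cells and 11.3 ± 4.24 in macrophages, H2-Ob at 214 ± 92.6 and 12.1 ± 5.16, and H2-DMb2 at 191 ± 85.3 and 34.8 ± 18.5, higher in B cells in 4 of 4 mice for each.

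Costimulatory genes were present. Cd83, which stabilises MHC class II and CD86 at the surface, was found in 236 B cells at 443 ± 114 CPM, and Cd86 in 154 at 227 ± 68.5, against 6.91 ± 5.94 and 3.16 ± 4.14 in T cells. Macrophages stood at 773 ± 410 and 335 ± 132. Cd40, the receptor for T cell help, was found in 27 B cells and Icosl in 6.

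Receptors for the survival factors BAFF and APRIL were B cell genes here and their ligands were not. Tnfrsf13c, the BAFF receptor, was at 96.6 CPM in 20C1, 164 in 20R2, 197 in 28C1 and 322 in 28C2, with 149 B cells positive against 3 T cells and 4 macrophages. All 4 values lay far above the T cell mean of 1.09 ± 2.18. Tnfrsf13b (TACI) was found in 76 B cells at 79.8 ± 37.1 CPM, and Tnfrsf17 (BCMA), the receptor of plasma cells, in 3. Tnfsf13b (BAFF) and Tnfsf13 (APRIL) were at 0 in the 320 B cells and were found in 99 and 173 of the 827 macrophages. Cxcl13, the ligand of CXCR5, was found in 132 macrophages at 462 ± 431 CPM and in 2 B cells. Cd40lg, the help signal of T cells, was found in 21 T cells and 0 B cells, and Il4, Il21 and Ccl20 were at 0 in the B cells. Of the vascular genes that mark high endothelial venules, Glycam1, Madcam1 and Chst4 were at 0 in the B cells. These are genes of vessel cells, so this says nothing about such venules in the gland.

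Among cytokine genes, Ltb, which lymphoid tissue organisation needs, was found in 122 B cells at 164 ± 136 CPM, close to the T cell level of 179 ± 80.4. It differed between mice, at 41.4 CPM in 20C1, 65.7 in 20R2, 330 in 28C1 and 217 in 28C2, and the 20-month values lay below the 28-month values. Il10 was found in 18 B cells, Tnf in 19, Il6 in 9 and Lta in 5, and Tgfb1 in 90. Macrophages held more Tnf (522 ± 432 CPM against 21.5 ± 11.2) and Il10 (99.5 ± 57.1 against 17.1 ± 13.8).

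Of 6 proliferation genes, Mki67 was found in 7 of 320 B cells, Top2a in 6, Birc5 in 5 and Cdk1 in 4. Cenpa, a centromere histone, was found in 109 and Tubb5, a tubulin, in 76. Cenpa was at 259 ± 87.2 CPM against 69.3 ± 42.9 in T cells, higher in 4 of 4 mice. The list summed to 694 ± 275 CPM in B cells and 296 ± 205 in T cells. B cells were higher in 20C1, 20R2 and 28C1 but lower in 28C2, at 306 against 587 CPM. Birc5 stood at 181 CPM in 20R2 and 95.3 in 28C1, and at 0 in both without the Jchain-rich cells. Of the Mki67-positive B cells 4 were Jchain-rich. Genes induced by warm dissociation were detected, and their levels differed between mice. Hspa1a, a heat shock gene, was at 939 CPM in 20C1, 181 in 20R2, 775 in 28C1 and 4067 in 28C2 in B cells and at 1214, 338, 653 and 1499 in T cells of the same mice. Macrophages averaged 4593 ± 1567. Both lymphocyte types were highest in 28C2 and lowest in 20R2. Fos (290 ± 122 CPM), Dusp1 (88.9 ± 22.1) and Jun (447 ± 182) averaged below T cells (688 ± 298, 244 ± 14.8 and 805 ± 174), and Fos and Dusp1 were below T cells in 4 of 4 mice. Jund, at 3616 ± 839 CPM, was above T cells (2159 ± 386) in 4 of 4. The part of dissociation in differences between mice was not tested.

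Levels within B cells were then tested across mice by age and by rapamycin, with UMI counts summed per mouse and edgeR's quasi-likelihood test. Mice with at least 10 B cells entered, which left 20C1, 20R2, 28C1 and 28C2, 285 B cells and 1 residual degree of freedom. With rapamycin as a term, 20R2 was fitted exactly, so the age contrast set 20C1 alone against 28C1 and 28C2, and the lone mouse is assumed to vary like the others. A gene was called at an adjusted p under 0.05, and the calls for age, 0.085% of the 2353 genes tested, were both downward. The called genes were Igha (chr12:113254830-113260236) and Igkv1-117 (chr6:68121046-68121827). Igha had 1227 UMIs in 20C1, 0 in 20R2, 5 in 28C1 and 5 in 28C2 (log2 change −1.24 per month). Igkv1-117 had 146, 0, 1 and 3 UMIs in the same order (−1.04 per month). Only 20C1 was high for either gene, so these calls describe 20C1 and do not show a change with age. Nearly all of those UMIs came from the Igha cell of 20C1 described above: without the Jchain-rich cells 20C1 held 0 Igha and 1 Igkv1-117 UMIs, and neither gene had enough counts to be tested. In that fit 0 of 1649 genes passed for age, with 122 at an unadjusted p under 0.05.

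For rapamycin 0 genes passed in edgeR, with 117 at an unadjusted p under 0.05. The only rapamycin mouse with 10 B cells was 20R2, and with age as a term that contrast set it against 20C1 alone. DESeq2 on the same counts called 13 genes for age (10 higher, 3 lower) and 3 for rapamycin (1 higher, 2 lower). With the 8 mice that had at least 5 B cells, edgeR and DESeq2 both called 0 of 859 genes for either contrast, and edgeR had 48 genes for age and 32 for rapamycin at an unadjusted p under 0.05. Of the 220 listed genes 98 could be tested in the 4 mice and 1 passed, which was Igha. For the 9 MHC class II genes that were tested, the median log2 change was −0.01 per month, against 0.01 over all genes tested. Medians of other lists were 0.45 per month for the secretory markers (6 tested), −0.18 for light chain genes (4 tested), −0.13 for heavy chain genes (5 tested), 0.10 per month for the receptor and coreceptor genes (7 tested), −0.01 for receptor signalling (7 tested), −0.01 for the transcription factors (6 tested), −0.11 for plasma cell genes (5 tested) and 0.08 for the dissociation genes (14 tested). Apart from Igha, none of the genes in those lists passed. Some medians changed sign in the 8 mice with at least 5 B cells. They were 0.01 for light chain genes (4 tested) and 0.04 for the 1 heavy chain gene tested. Plasma cell genes stood at 0.04 (3 tested) and the transcription factors at 0.03 (3 tested). The secretory median fell but kept its sign, at 0.14 (6 tested). The Jchain-rich cells of 20C1 entered all of these sums. Cells over 10% Svs UMIs in 28C1 and 28C2, described below, entered them too. Without those cells the secretory sum fell from 64894 to 12392 CPM in 28C1 and from 120127 to 14002 in 28C2. In the 4 mice the fit left only the spread between 28C1 and 28C2, pooled in part over genes. The p-values of that fit hold no spread among 20-month mice or among rapamycin mice. With the 8 mice they measure the spread among mice of 1 run.

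RNA of the seminal fluid proteins was present in every B cell. The median B cell held 28 to 41 UMIs of the Svs genes depending on the mouse, against 34.5 to 41 in T cells of the same mice. Svs genes took 12.0% of the summed B cell UMIs in 28C2 and 6.14% in 28C1, where 4 and 1 B cells held over 10% Svs UMIs. Without these cells the B cell share of 28C2 was 26.6%. Secretory markers in the B cells summed to 9193 CPM in 20C1, 11504 in 20R2, 64894 in 28C1 and 120127 in 28C2, led by Svs5. Without the cells over 10% Svs UMIs the sums were 9193, 11504, 12392 and 14002 CPM. The other 28-month mice, 28R1 and 28R2, stood at 22416 and 9777 CPM, and Y2 and 20R1 at 20381 and 23662. With those cells left out, 4 genes passed for age in edgeR (0 higher, 4 lower).

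Sample tags were read to see how clean the tagging of each cell was. Cells had been assigned to mice by these same tags, so the leading tag is no separate check on the mouse. Every B cell had its own mouse's tag as the most abundant tag apart from 1 cell of 28C2. The median share of tag UMIs that belonged to the cell's own mouse was 49.4% in the B cells of 28C2 and 50.3% in its T cells, against 86.4% in its macrophages, and 63.6% to 81.2% in the B cells of the other 9 mice. T cells had a median of 48.0% in 20R2 and 48.6% in 28R2 and up to 79.1% elsewhere, and the cells other than B cells, T cells and macrophages had 69.6% in 28C2 against 82.0% to 89.0% in the other 9 mice. The part of tagging in the share of 28C2 was not tested. No cell barcode occurred for more than 1 mouse of the pool, which follows from the assignment of each cell to 1 mouse. Across all the libraries of the series 320 of 53031 barcodes occurred more than once, and 0 of these belonged to a B cell, although the B cells also number 320.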

How the data were processed

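The files used hold UMI counts per gene and cell, 1 matrix per mouse, which the authors deposited after counting 10x Genomics 3' libraries on an mm10 reference and assigning cells to mice by their oligonucleotide tags; the submitters' processing notes also name Seurat. Ages and rapamycin treatment follow the mouse names of those matrices and the study's description of the pool. Counts were used as deposited, with 32285 genes and 12 tag rows; tags and the 392 immunoglobulin genes were kept out of CPM totals. B cells, their gene lists and the tests were chosen with earlier results of these data known. Doublets were not called.

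Shares and ranks were tested over mice with exact two-sided permutation tests, and correlations with 100000 permutations (scipy 1.17.1), with Benjamini-Hochberg adjustment over 7 tests. Counts summed per mouse were fitted with edgeR 4.0.16 in R 4.3.3 (TMM scaling on all counts, immunoglobulin genes included, low counts filtered, age in months and rapamycin as terms); the scripts were tested on simulated data. Intervals are exact (Clopper-Pearson, 95%), while the limit for genes at 0 is 3 counts over the number of cells. DESeq2 1.42.0, other filters, other B cell limits, and each mouse left out were alternatives. Listed genes, the 15 genes highest in B cells over other cells (at least 50 CPM), the 3 strongest rises and falls passing an adjusted p of 0.05, and each mouse's leading variable genes were to be named. Gene positions and sequences come from GENCODE vM21 on GRCm38. Some listed genes are not reported here.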

Additional observations from a re-analysis of the deposited data

Results flagged for a closer look

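In each of 21 measures the highest or lowest mouse was compared with its nearest neighbour by Dixon's ratio, which flags about 5% of groups by chance, and 8 were flagged. Mouse 28C2 stood apart as the highest in 5 of them: 27.1% B cells among passing cells (next 6.64%), 25.0% among cells with a Ptprc UMI (next 10.9%), 2.03 B cells per T cell (next 0.826), 12.0% Svs UMIs in its summed B cells (next 6.14%) and 9.49% of its other cells with a Cd79a UMI (next 2.30%). These 5 measures share the cells of that mouse and are not independent. The last of them also rests on a gene of the rule and is no separate support.

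In the 4 B cells of 28R2, immunoglobulin genes took 47.3% of UMIs (next 25.2%), where 1 cell was Jchain-rich. Over the 4 mice with at least 10 B cells, the Cd79a level was highest in 28C1, at 1977 CPM (next 1656), and the Ccr7 level lowest in 20C1, at 207 CPM (next 263). Without the Jchain-rich cells, Cd79a was at 1418 CPM in 20C1, 2025 in 20R2, 1860 in 28C1 and 1608 in 28C2, and Ccr7 at 256, 360, 365 and 266, so neither mouse stood apart. Cd79a is a gene of the rule, so nothing is read from its flag.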

How the results depend on the processing

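The count of genes called for age in the 4 mice (2) was set by the processing, and it was 5 with library size scaling alone, 13 with DESeq2, 36 of 12855 genes (21 higher, 15 lower) with no filter on low counts, 4 with B cells taken at 5 or more UMIs, 0 without immunoglobulin genes, and 21 (11 higher, 10 lower) without mouse 20R2. For rapamycin (0) the counts were 3, 3 and 13 under the first 3 of these. Choices made after seeing the data gave 4 for age and 3 for rapamycin without cells over 10% Svs UMIs, and 0 and 0 without Jchain-rich cells. The 8 mice with at least 5 B cells gave 0 and 0, also with DESeq2, without immunoglobulin genes, with 3 months set against older mice, or with any 1 mouse left out. Except for the Jchain-rich cells, the cause was not tested.

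The replicate block, which pairs mice of the same number, could not be fitted in the 4 mice for lack of residual degrees of freedom; with at least 5 B cells per mouse it gave 0 for age and 0 for rapamycin. Same-numbered mice share only a number: their deviations correlated at 0.29 in 1 pair of groups and at −0.37 and −0.36 in the others. Other fits not run were at least 20 B cells per mouse, age as 3 months against older in the 4 mice (for age), and leaving out 20C1, 28C1 or 28C2.

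Leaving out each mouse moved the rank correlation of share with age between 0.24 and 0.69 (0.69 without 28R2), the rapamycin mean rank difference between −3.5 and −1.75, and Pearson's r with T cells between 0.31 (without 28C2) and 0.78, with 0.71 and p = 0.0615 by permutation without 28C1. The lambda rank correlation turned to 0.50 without 20C1 and ranged from −0.87. Ighd ranged from −0.87 to 0.87. In all, 88 alternative values, some of them in these ranges, changed no call. Another 25 moved a count of genes, 1 reversed a sign, 1 was stronger and 2 were weaker. Some of the 88 could not have changed a call. The smallest p of the exact permutation tests was 0.333 with 4 mice and 0.0556 for the share by rapamycin. With 219 of the 320 B cells in 1 mouse, counts of cells mostly describe 28C2, and the other mice gave 4 to 33 B cells each.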
